A study of Mus musculus with 24 samples.

Results

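The genes described here encode the enzymes that cut, protect and cross-link the extracellular matrix of mouse embryonic fibroblasts (MEFs): matrix metalloproteinases (MMPs), their tissue inhibitors (TIMPs), the membrane-bound ADAM proteases, the secreted ADAMTS proteases, the ADAMTS-like proteins and the lysyl oxidases. They were chosen by gene name and by a mean level of at least 0.5 CPM, that is counts scaled to a fixed library size, over all libraries. Of 55487 genes in the table, 83 carried such a name and 42 reached that level: 9 soluble MMPs, 5 membrane-type MMPs, 3 TIMPs, 8 ADAMs, 9 ADAMTS genes, 3 ADAMTS-like genes and 5 lysyl oxidases. The member nearest to the limit was *Mmp23* at 0.676 CPM, and the genes just below it were *Mmp17* at 0.347 CPM and *Adamts9* at 0.343 CPM. All 42 members passed the filter on low counts and were tested among 15401 genes.

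The study asked how the transcription factors TFEB and TFE3 shape the response of MEFs to MTORC1 inhibition and to AMPK activation. Wild-type (WT) MEFs and MEFs lacking *Tfeb* and *Tfe3* (*tfeb tfe3* DKO) received the solvent DMSO, torin1, an inhibitor of the kinase MTOR, or MK-8722, an allosteric activator of AMPK. Each of the 6 groups had 4 libraries, 24 in all, from poly(A)-selected RNA. Each group spanned 4 passages, 7, 8, 9 and 11 in WT and 8, 9, 10 and 11 in DKO, and dose and treatment time are not given in the labels. Nothing in the labels ties the libraries to separate derivations of the lines, so the p-values measure the spread between these libraries.

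Matrix metalloproteinases are secreted or membrane-anchored zinc enzymes made as inactive precursors, and TIMPs block them by binding the active site. ADAM proteases release the outer parts of cell-surface proteins, while ADAMTS proteases trim procollagens and proteoglycans. Lysyl oxidases oxidise lysines of collagen and elastin, which starts their cross-linking. Fibroblasts are a main source of many of these in connective tissue.

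Totals ran from 24668921 to 33332562 estimated counts per library, with RNA integrity numbers of 7.9 to 9.9. *Tfeb* fell from 22.9 ± 1.74 CPM (SD, n = 4) in WT DMSO to 2.25 ± 0.289 in DKO DMSO, while *Tfe3* was at 120 ± 1.17 and 124 ± 2.11 CPM, so transcript level does not show the loss of *Tfe3*. Fibroblast markers summed to 4470 to 7860 CPM in every library. Of these markers, *Thy1* was at 0 in the DKO DMSO and DKO torin1 groups, and *Lum* in the WT DMSO, WT MK-8722 and DKO DMSO groups. Neural markers summed to 361 to 521 CPM in WT and 275 to 373 CPM in DKO, and epithelial markers to 25.5 to 34 CPM in WT and 43.3 to 72.4 CPM in DKO. Macrophage markers summed to 2.73 to 4.1 CPM in WT DMSO, 11.6 to 14.8 CPM in WT MK-8722 and 5.38 to 13.9 CPM in DKO, with *Adgre1*, *C1qa* and *C1qb* at 0 in all libraries. The part of other cells in the differences between the lines and with the drugs was not tested, and in bulk RNA fewer cells of a type and less RNA per cell cannot be told apart.

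Per transcript length, in TPM, a unit that divides counts by transcript length, the inhibitors were the most abundant class. The 3 TIMP genes summed to 745 ± 67.6 TPM in WT DMSO and 938 ± 64.2 TPM in DKO DMSO (SD, n = 4). The 9 soluble MMPs summed to only 126 ± 7.33 and 138 ± 15.2 TPM in the same groups. *Timp2*, which inhibits MMPs and also helps MMP14 to activate pro-MMP2, averaged 405 TPM over all libraries, followed by *Timp1* at 335 TPM. *Mmp14*, the main membrane-type enzyme of fibroblasts, averaged 162 TPM and *Loxl4* 89.9 TPM. *Adam15* led the ADAMs at 86 TPM, *Mmp2* the soluble MMPs at 53.6 TPM, *Adamtsl5* its class at 33.4 TPM and *Adamts10* its class at 9.46 TPM. The lowest member was *Adamts12* at 0.224 TPM.

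**Figure D1:**
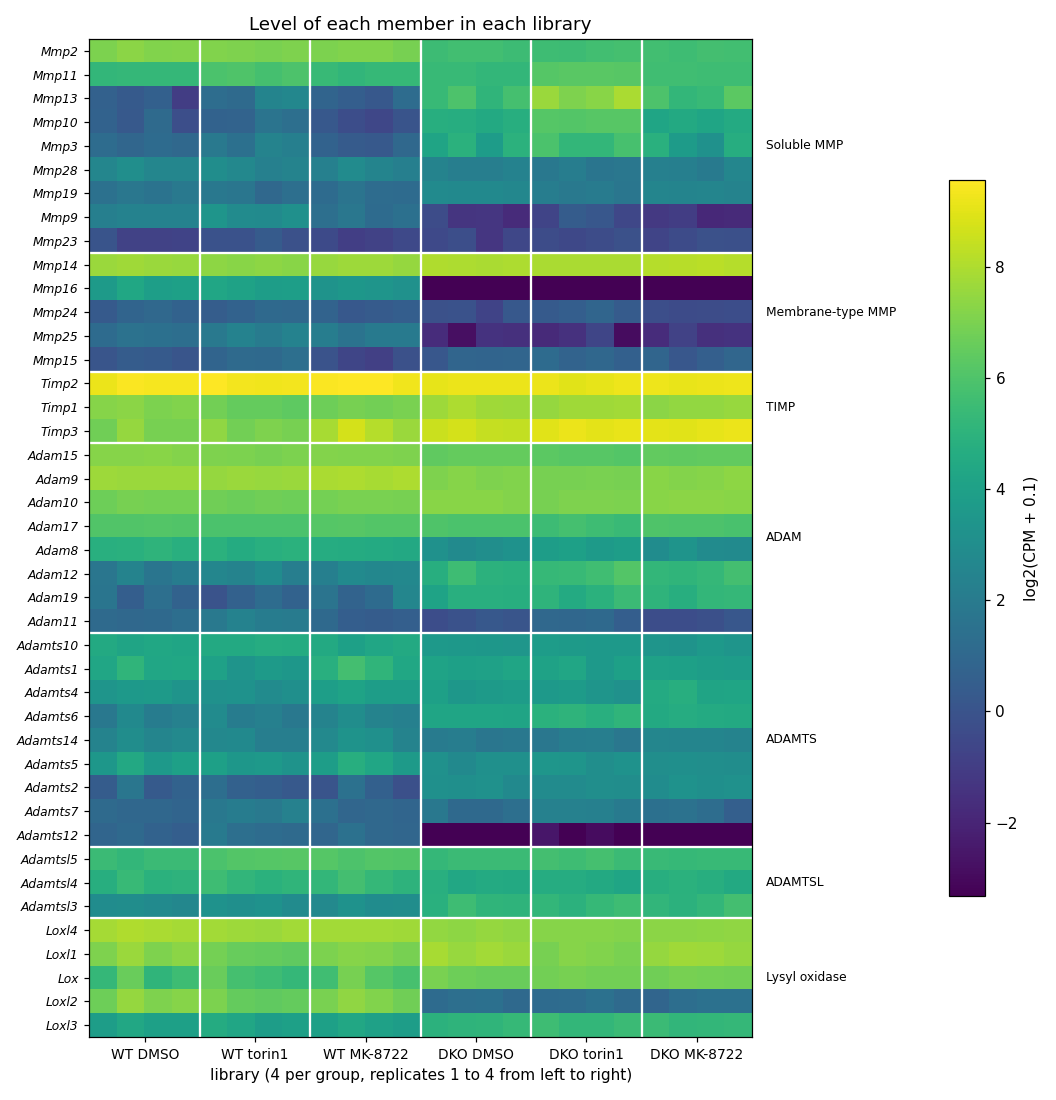
Level of the 42 members in the 24 libraries, as log2(CPM + 0.1), with genes in rows by class and libraries in columns by group. *Mmp16* and *Adamts12* are at or near the bottom of the scale in the DKO libraries, and *Mmp13*, *Mmp10* and *Mmp3* are highest in DKO torin1.

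Between the lines under DMSO, matrix genes differed in both directions. Under DMSO, 33 of 42 members were called, against 48.2 percent of all genes tested. Of these, 16 were higher in DKO, against 23.5 percent of genes, and 17 lower, against 24.6 percent. A gene was called at an adjusted p under 0.05 (edgeR quasi-likelihood, Benjamini-Hochberg over all tested genes) together with a fold change of at least 1.2. The median log2 fold change was -0.05 for the members and -0.01 for all genes. WT and DKO were separate MEF lines and each genotype was represented by 1 line, so genotype and cell line cannot be told apart in any of these differences.

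*Mmp16*, a transmembrane MMP, was at 12.9, 20.6, 14.6 and 16 CPM in the WT DMSO libraries and at 0 in all 12 DKO libraries. Its gene lies at chr4:17852893-18119145 (GRCm38). Against a floor of 3 counts over the group, it was at least 556-fold lower in DKO under DMSO, at least 602-fold lower under torin1 and at least 369-fold lower under MK-8722. *Adamts12*, a protease that cuts cartilage oligomeric matrix protein, was at 1.72, 2.02, 1.53 and 1.33 CPM in WT DMSO and at 0 in the 4 DKO DMSO libraries, at least 57.5-fold lower by the same floor, and at least 75-fold lower under MK-8722, where it was again at 0 in DKO. Under torin1 it gave 331 counts in WT and 3 in DKO, a ratio of 99.4 with an exact 95% counting interval of 33.7 to 484. Both genes were at 0 in every DKO library under DMSO and MK-8722. Their means over all libraries, 7.34 and 1.12 CPM, reached the limit for members only through the WT libraries. Their place among the members called between the lines is therefore partly set by that choice.

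*Loxl2*, a lysyl oxidase-like enzyme that cross-links collagen, was at 106, 183, 135 and 149 CPM in WT DMSO and at 2.16, 2.52, 2.57 and 2.01 CPM in DKO DMSO. The libraries did not overlap, and the log2 fold change was -5.95 (SE 0.2, adjusted p = 8.28e-17). The gene lies at chr14:69609068-69695834, and 44.9 percent of its 52-base transcript windows also occur in transcripts of other genes, most often *Gm21451*, so reads can be split between them. *Gm21451* itself was at 5.87 to 13.8 CPM in WT and at most 0.287 CPM in DKO. The other lysyl oxidases were closer: *Loxl4* fell from 239 ± 15.7 to 173 ± 6.21 CPM in DKO, and *Loxl3* rose from 16.9 ± 2.8 to 34.4 ± 3.25 CPM. *Loxl1*, which is needed for elastic fibres, rose from 156 ± 30.9 to 209 ± 19.5 CPM with overlapping libraries. *Lox*, the founding member of the family, was at 38.4, 97.5, 34.4 and 47.4 CPM in WT DMSO and 127, 105, 97.9 and 99.6 CPM in DKO DMSO (log2 fold change 0.98, SE 0.3, adjusted p = 0.00626), with 1 WT library just below the DKO range.

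*Mmp13*, *Mmp10* and *Mmp3* were higher in DKO. *Mmp13* encodes collagenase-3, which cuts fibrillar collagens. It was at 1.48, 1.14, 1.42 and 0.409 CPM in WT DMSO and at 41, 62.5, 34.7 and 54.9 CPM in DKO DMSO, and no DKO library came near the WT range (log2 fold change 5.43, SE 0.39, adjusted p = 3.75e-11). *Mmp10*, stromelysin-2, was at 1.57, 1.11, 2.09 and 0.75 CPM against 27.2, 26.2, 22.3 and 26.8 CPM, a log2 fold change of 4.22 (SE 0.19). *Mmp3*, stromelysin-1, was at 2.24, 1.81, 2.2 and 1.94 CPM against 18.5, 29.8, 13.6 and 30.5 CPM, a log2 fold change of 3.49 (SE 0.36). *Mmp11*, stromelysin-3, was not called (log2 fold change 0.04, SE 0.05, adjusted p = 0.533). The differences of *Mmp13*, *Mmp10* and *Mmp3* stood on 12 to 73 counts per library in WT DMSO. *Mmp3* and *Mmp10* share 7.94 and 8.02 percent of their 52-base windows with other genes, most often with each other.

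The gelatinases were lower in DKO. *Mmp9* was at 4.55, 5.09, 5.11 and 5.18 CPM in WT DMSO and at 0.685, 0.299, 0.307 and 0.201 CPM in DKO DMSO (log2 fold change -3.68, SE 0.28). *Mmp2* was at 130, 158, 137 and 146 CPM against 45.7, 49.7, 50 and 45.2 CPM (log2 fold change -1.58, SE 0.06, adjusted p = 9.43e-16). Neither pair of groups overlapped. The GPI-anchored *Mmp25* was lower too, with a log2 fold change of -3.67 on 1 to 7 counts per DKO library. Like *Mmp16* and *Adamts12*, it reached the limit for members only through WT, with DKO group means of 0.189 to 0.301 CPM. *Mmp9* also reached that limit through WT, with DKO means of 0.373, 0.838 and 0.278 CPM under DMSO, torin1 and MK-8722. It had 5 to 20 counts per DKO DMSO library. The place of *Mmp25* and *Mmp9* among the members called lower is therefore partly set by that choice. In contrast, *Mmp14* was at 194, 213, 196 and 190 CPM in WT DMSO and 261, 251, 245 and 252 CPM in DKO DMSO, 1.27-fold higher.

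Among the ADAMs, 3 were called higher and 4 lower in DKO under DMSO, of 8, against 23.5 and 24.6 percent of all genes. *Adam12* rose 8.42-fold, from 3.96 ± 1.02 to 33.6 ± 9.63 CPM, and *Adam19* 11.7-fold, from 2.15 ± 0.856 to 25.2 ± 4.99 CPM. *Adam10*, a sheddase of Notch and cadherins, rose 1.33-fold. *Adam15* was at 151, 149, 156 and 144 CPM in WT DMSO against 84.8, 92.1, 90 and 91.2 CPM in DKO DMSO, and *Adam8*, *Adam9* and *Adam11*, which lacks a catalytic site, had log2 fold changes of -1.79, -0.51 and -1.22. *Adam17*, the TNF-converting enzyme, was at 67.3 ± 1.38 and 62 ± 2.43 CPM and was not called. The ADAMs thus held members on both sides of the lines' difference.

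Of 9 ADAMTS genes, 2 were higher and 4 lower in DKO under DMSO, against the same 23.5 and 24.6 percent of all genes. *Adamts2*, a procollagen N-proteinase, rose 4.51-fold and *Adamts6* 3.83-fold, while *Adamts14*, another procollagen N-proteinase, was at 5.32, 7.74, 5.75 and 6.51 CPM in WT DMSO and 4.04, 4.27, 3.26 and 3.45 CPM in DKO DMSO. *Adamts10* was at 22.3, 18.6, 20.3 and 19.2 CPM against 12.4, 11.7, 11.1 and 10.9 CPM, without overlap (log2 fold change -0.8, SE 0.09), and *Adamts5*, an aggrecanase, fell from 15.4 ± 4.78 to 8.31 ± 1 CPM. *Adamtsl3* rose 4.96-fold. The inhibitors *Timp1* and *Timp3* rose by 0.58 and 1.46 on the log2 scale. *Timp2* was at 572, 727, 657 and 657 CPM against 550, 590, 576 and 587 CPM, with overlap, and was not called.

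**Figure D2:**
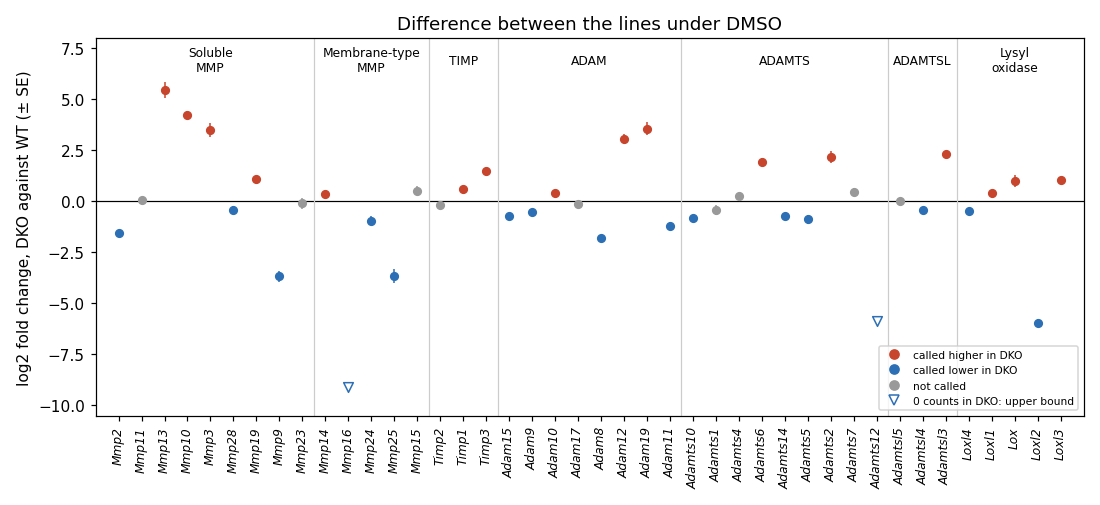
Log2 fold change of each member between DKO and WT under DMSO with its SE, by class, from edgeR's fit over all 24 libraries, 4 per group. Filled points are fitted values, 16 called higher and 15 called lower among them, and open triangles mark *Mmp16* and *Adamts12*, at 0 counts in DKO, at their upper bounds of -9.12 and -5.85.

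Under torin1, 35 members differed between the lines, against 51.8 percent of genes, 18 of them higher (24 percent of genes) and 17 lower (27.8 percent). Under MK-8722, 37 members differed, against 48.7 percent of genes, 18 higher (23.3 percent) and 19 lower (25.4 percent). Scaling by library size alone shifted the median of all genes by -0.13 in the torin1 comparison of the lines. Across the 3 treatments, 15 members were higher in DKO in each and 14 were lower in each, and no member changed direction between calls. The share of all genes called in the same direction under all 3 treatments was not computed. *Mmp23* and *Adamts7* were called under none. *Mmp13* was 45.7-fold and 35.1-fold higher under torin1 and MK-8722, *Mmp10* 33.1-fold and 26-fold, and *Loxl2* had log2 fold changes of -5.45 and -5.85. Several weaker calls rested on single libraries. Under DMSO, *Mmp28* lost its call when any 1 of 3 libraries was left out (adjusted p = 0.144 without WT DMSO replicate 2) and *Adamtsl4* when that library was left out (0.0929). *Adamts14* lost its call when any 1 of 5 libraries was left out under MK-8722 (adjusted p = 0.148 without WT MK-8722 replicate 2) and any 1 of 3 under torin1 (0.0634 without WT torin1 replicate 2). With passage as a block, the fit set the lowest passage of DKO against the lowest passage of WT, which are not the same passage number. It therefore tested another difference of the lines, and its values do not show whether these calls hold after adjusting for passage. In that fit, *Adamts14*, 1 of the 14, was not called under torin1 (log2 fold change -0.21, adjusted p = 0.238, against -0.53 without the block) or MK-8722 (-0.1, adjusted p = 0.588, against -0.43). Nor were *Mmp28* under DMSO (-0.13, adjusted p = 0.476, against -0.43) and *Timp2* under MK-8722 (-0.07, adjusted p = 0.138, against -0.27). *Mmp24*, a membrane-type MMP, had log2 fold changes of -0.95 under DMSO and -0.86 under MK-8722, which turned to 0.24 and 1.03 with an offset for average transcript length. Its main transcript took a mean of 91.5 percent of its counts in WT DMSO and 64.2 percent in DKO DMSO. Exons of a gene on the other strand covered 22.3 percent of the exonic bases of *Mmp19*, 20.6 percent of *Adam15*, 13.6 percent of *Mmp24*, 12 percent of *Mmp28* and 11.6 percent of *Loxl3*, and without strand in the counting the reads of such pairs cannot be told apart.

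Torin1 changed about as large a share of these genes as of all genes. In WT, 18 members were called, against 47.1 percent of genes tested, 12 of them higher (26.6 percent of genes) and 6 lower (20.5 percent). In DKO, 17 were called, against 43.2 percent, 12 higher (23 percent) and 5 lower (20.2 percent). Of the soluble MMPs, 6 of 9 were higher and 0 lower in WT, and 5 were higher and 2 lower in DKO. Among the 6, *Mmp23* was at 0.6 ± 0.215 CPM in WT DMSO and 0.93 ± 0.174 CPM in WT torin1, with overlapping libraries. Its call was lost without any of 4 libraries (adjusted p = 0.143 without WT torin1 replicate 3). Their median log2 fold change was 0.65 in WT and 0.93 in DKO, beside 0.05 and 0.02 for all genes. In DKO their summed level went from 138 ± 15.2 to 322 ± 41.4 TPM.

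*Mmp13* was at 2.35, 2.1, 5.52 and 6.12 CPM in WT torin1, above every WT DMSO library, a 3.58-fold rise (adjusted p = 0.00117). In DKO it reached 197, 134, 154 and 246 CPM, 3.8-fold above DKO DMSO and again without overlap (adjusted p = 2.83e-06). *Mmp10* reached 71, 68.8, 74.1 and 73.4 CPM in DKO torin1 (2.8-fold), while in WT it was at 1.57, 1.62, 3.01 and 2.47 CPM and overlapped with DMSO (1.58-fold, adjusted p = 0.0173). The 4 DKO torin1 libraries of *Mmp10* lay within a narrow band far above DMSO. *Mmp3* rose 1.97-fold in WT and 2.06-fold in DKO, *Mmp11* 1.57-fold and 1.9-fold, and *Mmp9* 1.69-fold and 2.17-fold. In WT, *Mmp3* lost its call when any of 7 single libraries was left out (adjusted p = 0.127 without WT torin1 replicate 3), and *Mmp10* when any of 3 was (0.129 without the same library). By limma voom, neither *Mmp13* (adjusted p = 0.0739) nor *Mmp3* (0.236) was called in WT.

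**Figure D3:**
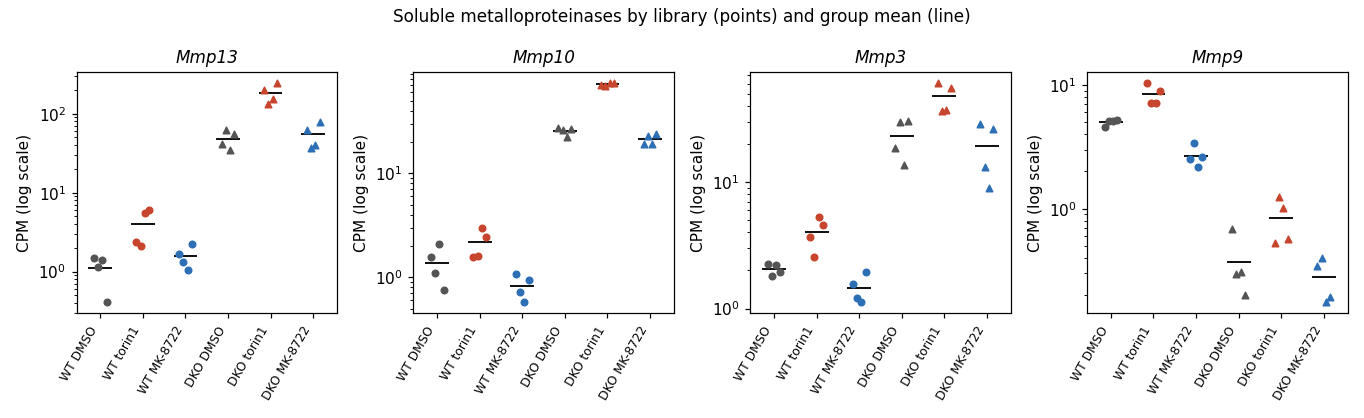
CPM on a log scale for 4 soluble MMPs, with each library as a point (circles WT, triangles DKO) and the mean of 4 libraries as a line. *Mmp13*, *Mmp10* and *Mmp3* are higher in every DKO library than in any WT library, *Mmp9* is lower, and the torin1 mean is above the DMSO mean in both lines for each gene.

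*Mmp13*, *Mmp3* and *Mmp10* lie in the MMP cluster of mouse chromosome 9, at chr9:7272514-7283331, chr9:7445822-7455975 and chr9:7502352-7510240 (GRCm38, plus strand). RefSeq promoter entries, 300 bases around a start site, existed for 26 of the 42 members. The AP-1 letters TGACTCA, searched on both strands, occurred in those of 4 members, *Mmp13*, *Mmp3*, *Mmp10* and *Adam19*. They occurred in those of 5.95 percent of all 27025 genes with an entry. The 150 bases before the RefSeq start (GRCm38.p6) are shown for the 3 cluster genes because all 3 were higher in DKO and rose with torin1, with those letters in capitals.
*Mmp13*, chr9:7272364-7272513, plus strand: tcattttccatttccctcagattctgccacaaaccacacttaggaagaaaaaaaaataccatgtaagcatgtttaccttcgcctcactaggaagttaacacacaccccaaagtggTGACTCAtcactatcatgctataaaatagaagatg
*Mmp3*, chr9:7445672-7445821, plus strand: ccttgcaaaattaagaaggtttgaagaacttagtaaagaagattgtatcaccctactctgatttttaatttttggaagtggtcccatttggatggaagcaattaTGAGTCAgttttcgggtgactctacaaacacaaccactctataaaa
*Mmp10*, chr9:7502192-7502341, plus strand: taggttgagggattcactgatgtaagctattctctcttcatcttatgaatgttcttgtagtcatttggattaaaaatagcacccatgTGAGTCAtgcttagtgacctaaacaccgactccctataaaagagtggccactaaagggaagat
The first capital lay 35 bases before the start in *Mmp13*, 46 in *Mmp3* and 63 in *Mmp10*. The E-box letters CACGTG occurred in entries of 2 members, *Adam10* and *Adam19*, and of 8.09 percent of all genes with an entry. The CLEAR core letters TCACGTGA, which contain the E-box and are associated with TFEB and TFE3, occurred in 0 members and 1.12 percent of genes. The cAMP response element letters TGACGTCA occurred in 0 members and 2.03 percent of genes.

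Other members also moved with torin1. *Adamts7*, which cuts cartilage oligomeric matrix protein, was at 2.06, 1.84, 1.9 and 1.67 CPM in WT DMSO and 3.46, 4.1, 3.64 and 5.01 CPM in WT torin1, a 2.16-fold rise without overlap. In DKO it went from 3.46, 2.05, 2.03 and 2.53 to 5.04, 4.92, 4.78 and 3.9 CPM, 1.84-fold. *Adam11* rose 2.01-fold in WT and 1.99-fold in DKO. In all, 7 members were called higher in both lines, *Adam11*, *Adamts7*, *Mmp3*, *Mmp9*, *Mmp10*, *Mmp11* and *Mmp13*, and *Loxl1* was lower in both, with log2 fold changes of -0.7 and -0.65. No member was called in opposite directions in the 2 lines, and the share of all genes called in both lines was not computed. *Loxl4* was at 225, 259, 243 and 228 CPM in WT DMSO and at 209 ± 10.5 CPM in WT torin1, and its log2 fold change of -0.19 (adjusted p = 0.000444) was under the fold limit.

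Several members were called with torin1 in 1 line, with no called difference in response between the lines in the fit without a passage block. *Adamts1* fell in WT (log2 fold change -0.91, SE 0.23), as did *Loxl2* (-0.52) and *Mmp14* (-0.31), which was at 165, 157, 164 and 155 CPM in WT torin1, below every WT DMSO library. *Mmp15* and *Mmp25* rose 1.92-fold and 1.78-fold in WT. In DKO, *Adamts6* rose 1.68-fold, *Mmp24* 1.65-fold, *Adam12* 1.47-fold and *Timp3* 1.47-fold, while *Adam17* (-0.38), *Adam15* (-0.28) and *Mmp28* (-0.44) fell. *Adam15* lost its call when any 1 of 6 libraries was left out (-0.24 without DKO torin1 replicate 4, under the fold limit). *Adam12* lost its call without any of 4 libraries (adjusted p = 0.124 without DKO torin1 replicate 4) and *Mmp28* without any of 5 (0.111 without DKO torin1 replicate 3). With passage as a block, the difference in torin1 response was called for 5 of the members named here. It was 0.78 for *Adamts1* (adjusted p = 0.00157), 0.5 for *Loxl2* (0.0129), -0.72 for *Mmp15* (0.0429), 0.72 for *Adamts6* (0.000137) and 0.54 for *Timp3* (0.00116). Without the block the adjusted p of these differences ranged from 0.0586 for *Adamts6* to 0.263 for *Loxl2*.

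MK-8722 moved fewer of these genes. In WT, 11 members were called, against 16.1 percent of genes, 4 higher (10.3 percent of genes) and 7 lower (5.87 percent). In DKO, 5 were called, against 8.69 percent, 4 higher (5.47 percent) and 1 lower (3.21 percent). With passage as a block in the fit, these counts were 19 and 11 members. Of all 15401 genes, 2913 in WT and 1806 in DKO were called with the block, and 2487 and 1338 without it. *Timp3*, an inhibitor that stays bound to the matrix, was at 110, 184, 119 and 123 CPM in WT DMSO and 232, 430, 278 and 195 CPM in WT MK-8722, 2.12-fold higher without overlap (adjusted p = 8.42e-05). In DKO it went from 370, 420, 350 and 333 to 519, 510, 536 and 591 CPM, 1.46-fold (adjusted p = 0.0331), a call lost when any of 7 single libraries was left out (adjusted p = 0.0894 without DKO DMSO replicate 4). *Timp3* overlaps exons of *Syn3* on the other strand over 21.3 percent of its exonic bases, and the sources used here do not state whether counting used strand. *Timp1* moved the other way, with log2 fold changes of -0.33 in WT and -0.3 in DKO. Without DKO DMSO replicate 2 its call in DKO was lost (adjusted p = 0.0865).

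*Mmp9* was at 2.52, 3.37, 2.17 and 2.61 CPM in WT MK-8722, below every WT DMSO library, with a log2 fold change of -0.9 (adjusted p = 0.00202). *Mmp16* (-0.66), *Adam8* (-0.32) and *Mmp15* (-0.7) fell in WT as well. Of these, *Adam8* was no longer called without WT DMSO replicate 3 (adjusted p = 0.0712), and *Mmp15* without any of 4 libraries (0.117 without WT MK-8722 replicate 3). *Mmp10* and *Adam11* were called lower with overlapping libraries, and *Mmp10* lost its call in 16 of 24 fits that left out 1 library. *Adam9*, a broadly expressed sheddase, was at 199 ± 2.78 CPM in WT DMSO and 246 ± 6.5 CPM in WT MK-8722, 1.24-fold higher.

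*Adamts4*, an aggrecanase, was higher with MK-8722 in both lines. It was at 16.1, 11.1, 13.1 and 13.8 CPM in DKO DMSO and 23, 26.9, 18.3 and 19 CPM in DKO MK-8722 (1.61-fold, adjusted p = 0.000806). In WT it was at 10.6, 12, 13 and 9.95 CPM and then 14.9, 17.7, 14.3 and 14.1 CPM (1.34-fold, adjusted p = 0.0195, and 0.0875 without WT MK-8722 replicate 2). *Adamts14* reached 5.94, 5.74, 5.67 and 5.28 CPM in DKO MK-8722, above all DKO DMSO libraries, though the call was lost without any of 4 libraries (adjusted p = 0.0797 without DKO DMSO replicate 3). Of the 5 lysyl oxidases, 0 were called with MK-8722 in either line in the fit without a passage block. With the block, *Lox* was called higher in WT (log2 fold change 0.48, adjusted p = 1.66e-07).

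Set directly against each other, the drugs differed for 21 members in WT, against 44.9 percent of genes, 10 higher with torin1 (24.9 percent of genes) and 11 lower (20 percent). In DKO they differed for 20 members, against 40.4 percent, 12 higher (21.1 percent) and 8 lower (19.3 percent). *Mmp10*, *Mmp9* and *Mmp3* were 2.65-fold, 3.15-fold and 2.78-fold higher with torin1 than with MK-8722 in WT. *Timp3* was lower with torin1 than with MK-8722 in WT (log2 fold change -1.08), and in DKO the drugs gave 541 ± 37.2 and 539 ± 36.4 CPM, a difference of 0.01 with an SE of 0.18. *Adamts4* was lower with torin1 in both lines (-0.84 and -0.96), and *Adamts1*, which cuts versican and aggrecan, in WT (-1.43).

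The response to torin1 differed between the lines for 6 members, against 11.0 percent of genes tested, 4 with a higher response in DKO (4.68 percent of genes) and 2 with a lower one (6.33 percent). The response to MK-8722 differed for 1 member, lower in DKO (4.08 percent of genes), against 5.49 percent in either direction. With passage as a block the counts were 13 and 4 members. Of all 15401 genes, 2367 and 1392 were called with the block, and 1696 and 846 without it. In that blocked fit, *Adamts1* (0.78 for torin1 and -0.72 for MK-8722) and *Timp3* (0.54 and -0.5) were called for both drugs, as was *Adamtsl5*. *Lox* was called there for MK-8722 (-0.39, adjusted p = 0.000471). Without the block, *Adamtsl5*, which binds microfibrils and has no protease domain, was the only member called for both drugs. It was at 44.5, 36.4, 44.1 and 43.5 CPM in WT DMSO, 60.4, 68.1, 70.9 and 73.1 CPM in WT torin1 and 70.5, 62.3, 68.3 and 67.1 CPM in WT MK-8722. In DKO it was at 38.2, 43.2, 43.7 and 43.8 CPM with DMSO, 52.7, 47.1, 54.1 and 44.3 CPM with torin1 and 42.1, 39.1, 41.3 and 40.7 CPM with MK-8722. Every treated WT library thus lay above every DMSO library of either line, while the DKO MK-8722 libraries lay among the DMSO libraries. With torin1, the log2 response differed by -0.46 in DKO (SE 0.1, adjusted p = 0.00293). With MK-8722 the difference was -0.72 (SE 0.1, adjusted p = 3.95e-05). Under DMSO the lines were at 42.1 ± 3.82 and 42.2 ± 2.7 CPM.

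The gene lies at chr10:80339110-80348412 on the minus strand (GRCm38). The 150 bases before its RefSeq start are shown because of this difference between the lines, and none of the 4 motifs was found in its 300-base entry.
*Adamtsl5*, chr10:80348449-80348598, minus strand: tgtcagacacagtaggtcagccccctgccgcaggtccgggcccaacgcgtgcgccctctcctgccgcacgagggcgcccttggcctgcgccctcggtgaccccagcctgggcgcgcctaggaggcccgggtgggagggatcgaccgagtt
The absence of these letters says only that they are not in this window.

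*Adam8*, a protease of leukocytes and of activated stromal cells, was at 27.4, 28.6, 33.6 and 27.5 CPM in WT DMSO and 29.6, 24.6, 27.5 and 30 CPM in WT torin1, which overlapped. In DKO it went from 9.15, 7.13, 8.22 and 9.38 to 14.1, 16, 13.1 and 14.3 CPM, and the response differed by 0.83 (SE 0.14, adjusted p = 0.000292). *Mmp10* had a response 0.82 higher in DKO (SE 0.28, adjusted p = 0.0467), a call lost in 13 of 24 fits that left out 1 library (0.172 without WT DMSO replicate 3). *Timp1* fell from 145 ± 13.2 to 94.9 ± 12.3 CPM with torin1 in WT and was at 216 ± 21.7 and 206 ± 15.8 CPM in DKO, a difference of 0.54 (adjusted p = 0.00404). *Mmp11* had a response 0.28 higher, a call lost without either of 2 libraries because the fold change fell under the limit (0.25 without DKO DMSO replicate 3). *Mmp19*, at 6.71 ± 0.422 CPM in DKO DMSO and 3.78 ± 0.454 CPM in DKO torin1, had a response difference of -0.66. *Mmp19* lost its call without any of 7 libraries (adjusted p = 0.0936 without WT torin1 replicate 1).

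**Figure D4:**
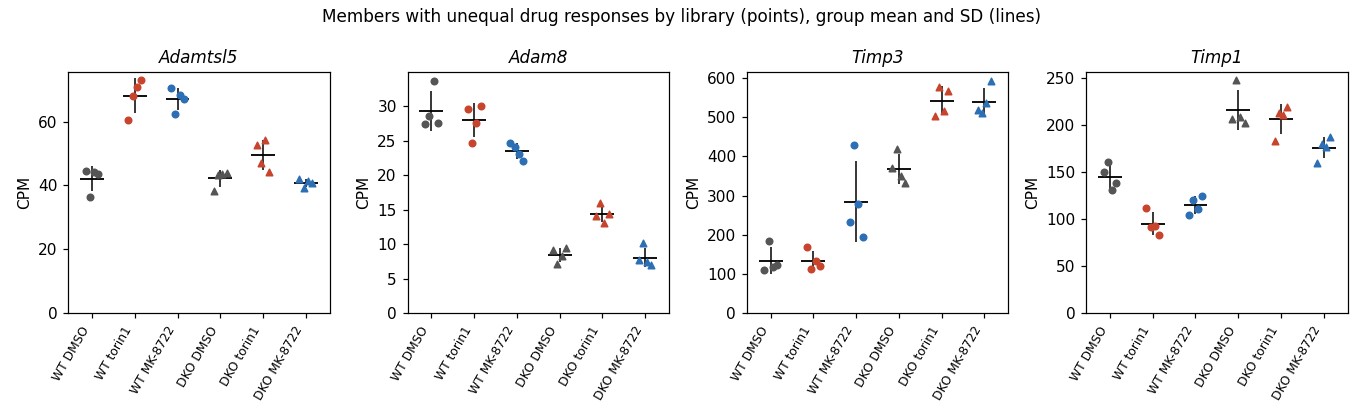
CPM of 4 members in each library (circles WT, triangles DKO), with the mean and SD of 4 libraries as lines. *Adamtsl5* is above the DMSO range with both drugs in WT and within it with MK-8722 in DKO, *Adam8* rises with torin1 in DKO, *Timp3* is higher with MK-8722 in both lines, and *Timp1* is lower with both drugs in WT.

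Passage, as given in the labels, moved with many members in WT. The passage 11 library was the highest of its group under all 3 treatments for 17 of 42 members, against 11.0 percent of all genes tested, and the lowest for 3, against 10.6 percent. *Lox*, the main collagen and elastin cross-linker, chosen for this after its values were seen, was at 97.5, 96.6 and 122 CPM in the passage 11 libraries of WT DMSO, torin1 and MK-8722, 2.44, 2.1 and 2.08 times the mean of the other 3 libraries of each group. *Adamts2* stood 2.51, 1.84 and 2.57 times higher in the same libraries and *Timp3* 1.56, 1.38 and 1.83 times. *Adamts5*, *Adamts6*, *Loxl2*, *Loxl1* and *Mmp16* were among the 17 as well. In DKO, the passage 8 library was highest for 6 members, against 8.76 percent of genes, among them *Adam12* at 1.66, 1.6 and 1.45 times and *Mmp13* at 1.44, 1.52 and 1.7 times the other libraries. At the other passages of WT, the library was highest under all 3 treatments for 3 members at passage 7 (4.50 percent of genes), 1 at passage 8 (3.79 percent) and 0 at passage 9 (1.96 percent), and lowest for 8 (6.59 percent), 3 (2.23 percent) and 1 (1.10 percent). In DKO, passage 8 was lowest for 2 members (6.55 percent), and passages 9, 10 and 11 were highest for 2 (3.09 percent), 1 (2.23 percent) and 6 (5.73 percent) and lowest for 3 (3.91 percent), 0 (2.55 percent) and 4 (6.80 percent). Each passage of a line had 1 library per treatment, so passage and culture cannot be told apart.

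**Figure D5:**
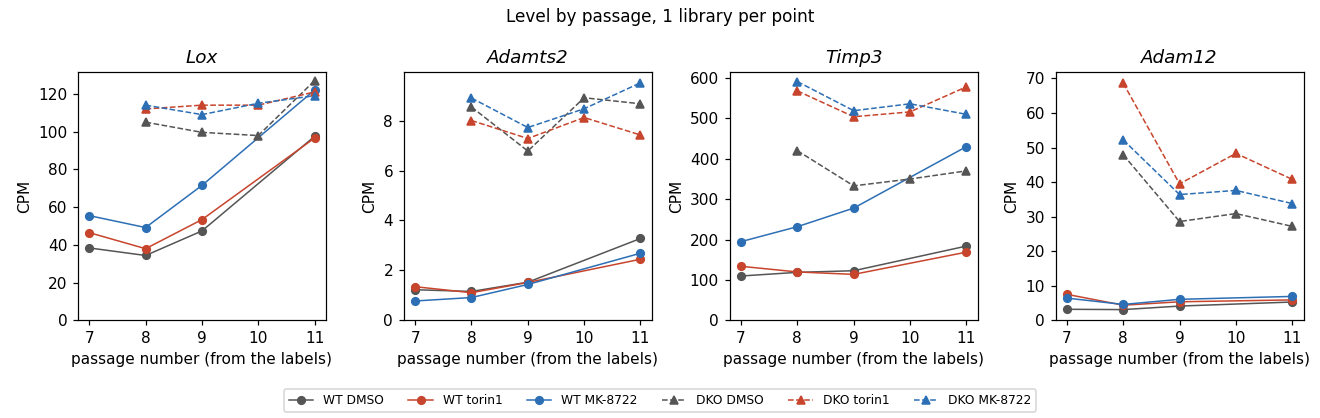
CPM of *Lox*, *Adamts2*, *Timp3* and *Adam12* against the passage number in the labels, with 1 library per point, circles and solid lines for WT and triangles and dashed lines for DKO. The WT passage 11 libraries are the highest WT libraries of their treatment for *Lox*, *Adamts2* and *Timp3*, and the DKO passage 8 libraries are the highest DKO libraries of their treatment for *Adam12*.

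With passage as a block, *Lox* was called higher with MK-8722 in WT (log2 fold change 0.48, adjusted p = 1.66e-07), against 0.45 (SE 0.29, adjusted p = 0.272) without it. *Adamts1* was 0.51 higher and *Adam12* 0.61 higher in the same blocked comparison. The torin1 response of *Adam19* (0.83) and *Adamts5* (0.54) also differed between the lines with the block. For *Timp3*, the difference in MK-8722 response was -0.5 with the block (adjusted p = 0.00311) and -0.53 without it (0.291). The block added 8 members for MK-8722 in WT, 6 for MK-8722 in DKO and 7 for the difference in torin1 response and removed none of these. Between the lines, the blocked fit set DKO at passage 8 against WT at passage 7, which is not the difference tested without the block. There, 1 call was absent under DMSO, 1 under torin1 and 2 under MK-8722, and 0, 1 and 1 were new.

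Genes whose products act on or are cut by these enzymes were examined as 7 lists. Their counts stand beside shares of all genes called with torin1 of 26.6 percent higher and 20.5 percent lower in WT and 23 percent higher and 20.2 percent lower in DKO. Of 11 tested genes of the plasminogen system and cell-surface MMP regulators, torin1 raised 2 and lowered 4 in WT and raised 3 and lowered 4 in DKO. *Plau*, urokinase, which makes the plasmin that can activate pro-MMPs, went from 17.2 ± 1.29 to 35 ± 7.26 CPM with torin1 in DKO and from 17.1 ± 1.91 to 17 ± 1.84 CPM in WT, a difference in response of 1.03 (SE 0.18, adjusted p = 0.000307). *Cd44*, a surface receptor that docks MMP9, rose from 329 ± 19.4 to 432 ± 21.6 CPM with MK-8722 in WT and was at 406 ± 18.1 and 395 ± 34.3 CPM in DKO, a response difference of -0.43. Of 8 regulators of ADAM10 and ADAM17, 5 were lower and none higher in DKO under DMSO, against 24.6 percent of all genes lower and 23.5 percent higher, and *Rhbdf2*, which carries ADAM17 to the cell surface, went from 21 ± 1.56 CPM to 0, 0, 0 and 0.12 CPM. *Tspan14*, a partner of ADAM10, had a torin1 response 0.46 higher in DKO. Of 4 propeptide convertases, *Pcsk6* was higher in DKO under DMSO by 1.01 on the log2 scale, and torin1 lowered 2 of the 4 in WT and 3 in DKO.

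Of 21 collagen-modifying genes, torin1 lowered 10 and raised none in WT, where 20.5 percent of all genes were lower, and lowered 10 and raised 1 in DKO, where 20.2 percent were. Their median log2 fold changes were -0.25 and -0.24, beside 0.05 and 0.02 for all genes. *P3h1*, a collagen prolyl 3-hydroxylase, fell from 44.1 ± 1.44 to 27.2 ± 1.31 CPM in DKO and from 47 ± 4.15 to 37 ± 2.78 CPM in WT, a difference in response of -0.35. *P4ha3*, a subunit of a prolyl 4-hydroxylase, was lower in DKO under DMSO (log2 fold change -3.81). Of 15 elastic fibre and microfibril genes, torin1 raised 6 and lowered 2 in WT and raised 7 and lowered 1 in DKO, and *Fbn1*, the fibrillin that ADAMTS-like proteins bind, had a torin1 response 0.57 higher in DKO. *Mfap2* was at 3.59 ± 0.82 CPM in WT DMSO and 0 in all DKO DMSO libraries. Of 10 ADAMTS substrates, torin1 raised 5 in WT and 4 in DKO and lowered none, and *Vcan*, the versican core protein, was at 76.9 ± 8.07 CPM in WT DMSO and 1.63 ± 0.46 CPM in DKO DMSO. *Tnc* had a torin1 response 0.96 higher in DKO. Among 23 shed growth factors and receptors, torin1 raised 7 and lowered 6 in WT and raised 8 and lowered 4 in DKO. The responses of *Il6ra*, the interleukin-6 receptor, differed by -0.69 and -0.93 in DKO for torin1 and MK-8722, and *Btc*, betacellulin, was lower in DKO under DMSO (-2.34).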

How the data were processed

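Stranded, poly(A)-selected mRNA of 24 MEF libraries in 6 groups of 4 was sequenced as 52-base read pairs. The authors made the deposited estimated counts with nf-core/rnaseq, STAR and Salmon on GRCm38 with UMIs taken into account, and the STAR and Salmon versions are not given in the sources used here. The deposited TPM values, which the authors derived from the same Salmon estimates, were summed per gene for levels between genes. Whether counting used strand is not stated. Of the gene counts, 15.2 percent were not whole, and they were rounded.

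Genes were kept by filterByExpr with a minimum count of 10, scaled by TMM and fitted in 1 quasi-likelihood model with 1 mean per group, which left 18 residual degrees of freedom (edgeR 4.0.16, R 4.3.3). Benjamini-Hochberg adjustment ran over all 15401 genes, and calls had to pass 0.05 on that scale and change 1.2-fold or more. The SE of a log2 fold change was derived from its test, as the absolute fold change on that scale divided by the square root of the F statistic. The coefficient of variation between libraries of a group was 10.7 percent. CPM values are TMM-scaled except for the choice of members, which used column totals. Genes at 0 in a group were compared against a floor of 3 counts over the group, and counting intervals (95%) cover counting error only. Alternatives used DESeq2 1.42.0, limma 3.58.1, other filters, scalings and blocks, and left-out libraries. The script was tested on simulated counts.

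Values in every library are given for the member with the highest mean TPM of each class and, for each comparison with DMSO, between lines or between responses, the 2 called members with the largest change, a mean of at least 2 CPM and, between groups, no overlap of libraries. *Mmp3*, *Timp1*, *Lox* and other members given in every library were chosen after their values were seen. The members and gene lists were chosen with earlier results of these data known. The study's methods name a batch-effect removal with limma without saying what the batches were. The labels name a single batch, so no batch term was used here. RefSeq promoter entries came from GRCm38.p6.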

Additional observations from a re-analysis of the deposited data

Results flagged for a closer look

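In 17 of 247 sets of 4 libraries (1 member in 1 group), 1 library stood apart from the other 3 by Dixon's criterion, and chance flags about 5 percent. Of the 17, 6 came from WT passage 11, 3 from WT passage 7, 4 from DKO passage 11, 3 from DKO passage 8 and 1 from DKO passage 9. In WT DMSO these were *Adamts1* at 34.5, *Mmp28* at 8.1 and *Adamtsl5* at 36.4 CPM in replicate 2 and *Mmp9* at 4.55 and *Mmp23* at 0.922 CPM in replicate 1. The other WT values were *Loxl2* at 131 CPM in torin1 replicate 1, *Mmp23* at 1.19 CPM in torin1 replicate 3, and *Mmp19* at 3.01 and *Adamts6* at 7.99 CPM in MK-8722 replicate 2. In DKO DMSO they were *Adam19* at 17.8, *Mmp15* at 1.03, *Adamtsl5* at 38.2 and *Adam17* at 65.6 CPM in replicate 1 and *Timp1* at 248 and *Adamts5* at 6.83 CPM in replicate 2. *Adamts10* stood at 13.9 CPM in DKO torin1 replicate 1 and *Adam11* at 1.04 CPM in DKO MK-8722 replicate 4.

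By the test of the difference itself, the torin1 response differed between the lines (DKO compared to WT, log2) by 0.83 for *Adam8*, 0.82 for *Mmp10*, 0.54 for *Timp1*, 0.28 for *Mmp11*, -0.46 for *Adamtsl5* and -0.66 for *Mmp19*. The MK-8722 response differed by -0.72 for *Adamtsl5*. Genotype and cell line cannot be told apart in these values.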

How the results depend on the processing

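Of 204 calls of a member in a comparison, 37 were lost without some single library and 0 reversed. Leaving out 1 library gave 14 to 19 called members for torin1 and 8 to 14 for MK-8722 in WT, 15 to 18 and 2 to 5 in DKO, 32 to 34, 34 to 35 and 35 to 38 between lines under DMSO, torin1 and MK-8722, 4 to 10 and 1 to 2 for the responses, and 18 to 23 and 18 to 20 between drugs in WT and DKO. The 2 for MK-8722 in DKO was without DKO MK-8722 replicate 1, 3 remained called without DKO DMSO replicate 3 or 4 or DKO MK-8722 replicate 2, and the 10 for the torin1 response was without WT MK-8722 replicate 2. Testing against the fold change of 1.2 itself (glmTreat) lost 50 of the 204 calls, the most of any setting. It left 4 members for MK-8722 in WT, 1 in DKO, 1 for the torin1 response and 13 between drugs in DKO. The share of all genes called by that test was not computed. With passage within line as a block, 19, 11, 13 and 4 members were called for MK-8722 in WT, in DKO, and for the torin1 and MK-8722 responses. Of all 15401 genes, 2913, 1806, 2367 and 1392 were called in the same blocked comparisons. Without the WT passage 11 and DKO passage 8 libraries, MK-8722 in WT gave 14, of which 9 were higher in place of 4 and 5 lower, and 17 of the 204 calls were lost. For the MK-8722 response, 4 were called on adjusted p alone and 2 with a transcript length offset. That offset reversed *Mmp24* between lines, to 0.24 under DMSO and 1.03 under MK-8722. No other call reversed in the 14 settings wherever it could be tested. Of the 204 calls, 16 were lost with library size alone, 13 with the length offset, 9 with limma voom, 9 with the groups compared alone and 1 with the DESeq2 test. The causes were not tested.

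Same-numbered libraries of any groups deviated together (r over 0.1) in 13 of 60 pairs, against 21 of 180 pairs with different numbers. Within a line, libraries of the same passage did so in 17 of 24 pairs, against 7 of 72 of different passages. Some pairs share both number and passage, so number and passage are not separated here. With the replicate block, 19, 11, 18 and 5 members were called for the drugs in WT and DKO, 33, 35 and 38 between lines, 5 and 1 for the responses and 21 and 20 between drugs. Of all 15401 genes, 7279, 2520, 6676 and 1374 were called for the drugs in that fit. Between lines 7475, 8026 and 7541 were called, for the responses 1725 and 863, and between drugs 6923 and 6237.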
